A study of Mus musculus with 38 samples.

Results

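The genes described here are the glucocorticoid receptor gene Nr3c1 and 8 genes known as its direct targets in many tissues, namely Fkbp5, Tsc22d3, Klf9, Klf15, Sgk1, Zbtb16, Cebpb and Cebpd. Their promoters were found by position alone: a promoter cluster, a run of neighbouring transcription start sites, was taken when a 5′ end annotated for one of the genes on the same strand lay no more than 500 bp from its highest peak. All 9 genes had such a cluster, and the 11 clusters found are 11 of 10819 in the table, which covers 9077 genes. No expression value entered this choice, although the genes were picked with earlier results of these data known.

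The glucocorticoid receptor is a nuclear receptor that waits in the cytoplasm in a complex with heat shock proteins and immunophilins. When it binds corticosterone, the main glucocorticoid of mice, it enters the nucleus and binds DNA at glucocorticoid response elements, where it raises the transcription of some genes and lowers that of others. Fasting and stress raise corticosterone, and in skeletal muscle the receptor is known for inducing genes of protein breakdown and for turning fuel use away from glucose.

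The libraries are nAnT-iCAGE libraries of soleus muscle, a slow postural muscle of the lower leg, from male C57BL/6J mice, with 1 library per mouse. CAGE reads the capped 5′ end of RNA without amplification, so that 1 tag stands for 1 RNA start, and levels are given as tags per 1000000 mapped tags (TPM). Experiment #1 had 28 mice. Of these, 4 Pre mice were taken on day 1 before fasting, and 8 Mid mice on day 2 under the fast that induces torpor. The study reports that oxygen consumption varied widely among the Mid mice, which were in torpor or between torpid states. The 4 Post mice were taken on day 3 after food had been returned. The 4 HiT mice were fasted at a warm ambient temperature that prevented torpor. The 4 Fed mice kept their food at the low ambient temperature of the Mid mice. The 4 Dep mice were fasted in the cold and kept out of torpor by gentle touching. Experiment #2 was another batch of mice with 2 Pre, 5 Mid and 3 Post libraries. By the study's methods the mice were sampled at the same clock time, so day and condition change together between Pre, Mid and Post. On which of the HiT and Fed mice had food, the labels and the study's text differ, and its methods were followed. The labels name no transgene or drug, and corticosterone itself was not measured in these files. Each value is a whole muscle, so that a change in the number of cells of a type and a change of RNA per cell cannot be told apart.

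Depth was between 18257657 and 39176649 tags in clusters per library in experiment #1 and between 9359994 and 20914855 in experiment #2. The slow muscle markers (Myh7, Tnnt1, Tnni1 and the like; 8 of 8 with a cluster) summed to between 7505 and 20859 TPM in experiment #1, with the lowest sum in a HiT library. One Mid library stood apart over all clusters. On a scale on which each cluster called from the Pre to Mid has its Pre mean at 0 and its Mid mean at 1, with the library placed left out of these means and, for a Mid library, of the calls, the median over 3545 clusters was 0.38 in Mid 6, against 0.96 to 1.18 in the other 7 Mid libraries. Dep 3, at 1.04, was close to the other 3 Dep libraries on this scale (0.81 to 0.93). Of the 11 clusters, Mid 6 had the lowest level of the Mid group in 9, and Dep 3 had the highest level of the Dep group in 11 by TPM and in 9 after TMM scaling. Counts of calls that use these libraries are therefore also given without both, an alternative chosen after the data were seen.

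**Figure D1:**
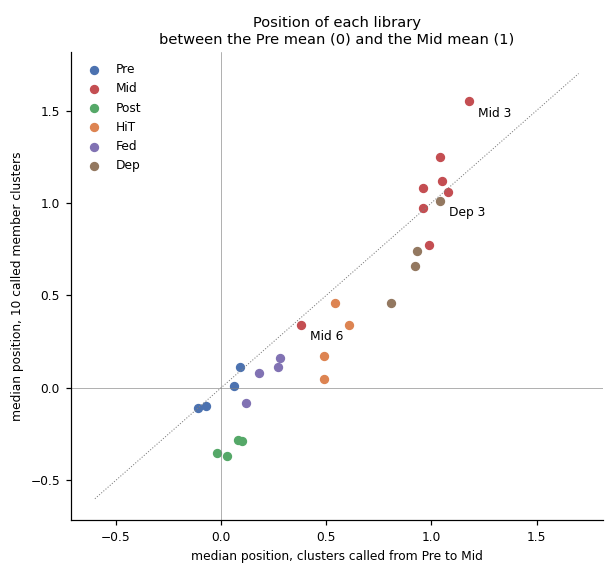
Position of each library of experiment #1 between the Pre mean (0) and the Mid mean (1), as the median over all clusters called from the Pre to Mid (horizontal axis) and over the 10 called clusters of the receptor and its targets (vertical axis), with 1 point per library and the dotted line where both are equal. Mid 6 lies at 0.38 and 0.34, below the other Mid libraries, and Dep 3 lies at 1.04 and 1.01, the highest of the Dep libraries.

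Coordinates are those of the mm10 mouse genome, and those of Nr3c1 are given with its levels. Sgk1, on the plus strand of chromosome 10, had an upstream cluster from 21993828 to 21994223, whose peak lay 120 bp from the start of an annotated transcript, and a downstream one from 21994611 to 21994860, whose peak lay 1 bp from the start of a transcript annotated as retaining an intron, with 674 bp between the peaks. Nr3c1 and Sgk1 had 2 clusters each and the other 7 genes 1. That of Fkbp5 was on the minus strand of chromosome 17 (28485966 to 28486184, peak 2 bp from an annotated start). Tsc22d3 was on the minus strand of chromosome X (140542531 to 140543350, 0 bp) and Zbtb16 on the minus strand of chromosome 9 (48835527 to 48836592, 5 bp). Klf9 was on the plus strand of chromosome 19 (23140751 to 23142235, 12 bp) and Klf15 on the plus strand of chromosome 6 (90462263 to 90462724, 19 bp). Cebpb was on the plus strand of chromosome 2 (167688692 to 167690284, 50 bp) and Cebpd on the plus strand of chromosome 16 (15887060 to 15888069, 2 bp).

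Promoter sequence from RefSeq (GRCm38.p6, 250 bases before to 50 after a gene's start) was matched to the peaks for the 8 target genes, and 5 of them (Fkbp5, Klf9, Klf15, Sgk1 at its downstream cluster, and Cebpb) had a RefSeq start within 100 bp of the CAGE peak. The sequences below are 3 of these windows, each shown 5′ to 3′ on the strand of the gene up to the base before the CAGE peak, so that the last letter lies 1 base upstream of the most used start. They are shown as examples from genes that were higher in the Mid than in the Pre group. Klf15 holds E-boxes, Klf9 a cyclic AMP element core and the downstream Sgk1 cluster a TATA box. These are not separate kinds of start, since Klf15 also holds the cyclic AMP element core. Capitals mark matches to 3 motifs searched on both strands. An E-box was searched as CACGTG. The core of a cyclic AMP response element was searched as TGACG, and the box that places the start of transcription as TATAAA.
Klf15, chr6:90462326-90462594, plus strand: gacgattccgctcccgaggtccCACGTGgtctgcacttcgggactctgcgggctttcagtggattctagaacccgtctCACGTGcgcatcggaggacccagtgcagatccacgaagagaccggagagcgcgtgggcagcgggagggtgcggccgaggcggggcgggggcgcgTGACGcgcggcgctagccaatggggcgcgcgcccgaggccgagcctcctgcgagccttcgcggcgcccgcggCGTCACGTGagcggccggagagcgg
Klf9, chr19:23140976-23141213, plus strand: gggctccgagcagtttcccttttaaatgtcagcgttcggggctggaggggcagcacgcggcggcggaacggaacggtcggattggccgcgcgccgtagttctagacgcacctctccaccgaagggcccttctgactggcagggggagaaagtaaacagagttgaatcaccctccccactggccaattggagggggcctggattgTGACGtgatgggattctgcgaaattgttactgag
Sgk1, downstream cluster, chr10:21994416-21994683, plus strand: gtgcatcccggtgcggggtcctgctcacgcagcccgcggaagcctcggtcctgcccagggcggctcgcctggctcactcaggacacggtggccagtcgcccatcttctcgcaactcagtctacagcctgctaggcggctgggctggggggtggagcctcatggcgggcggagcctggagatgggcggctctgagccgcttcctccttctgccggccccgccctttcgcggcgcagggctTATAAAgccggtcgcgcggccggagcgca

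TATAAA began 29 bases before the peak of the downstream Sgk1 cluster, and also 29 bases before the peak of Cebpb. It was held by 13.6% of the 32851 RefSeq windows of the same length. In Klf15, CACGTG began 247, 191 and 22 bases before the peak, and TGACG on the reverse strand overlapped the last of these, 25 bases before the peak. CACGTG was held by 7.15% of all windows and TGACG by 20.8%. In Klf9, TGACG began 34 bases before the peak. It also began 97 bases before the peak of Klf15, and 230 (on the reverse strand), 103 and 57 bases before that of Cebpb. Neither the palindromic glucocorticoid response element, searched as GNACA and TGTNC with 3 bases between them and held by 0.475% of all windows, nor its hexamer AGAACA, held by 19% of them, was found in the 5 windows. This says only that these letters are not in these windows, and elements farther from the start were not searched.

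The first question was how the genes changed from the Pre to Mid (called entry below) and from the Mid to Post (called return). Food and torpor both change in these comparisons and cannot be told apart there. From the Pre to Mid in experiment #1, 9 of the 11 clusters were up-regulated and 1, the upstream cluster of Nr3c1, was down-regulated, while the downstream cluster of Nr3c1 was not called (log2 fold change 0.13 ± 0.13 SE, FDR 0.507). Over all 10776 clusters tested, 15.4% were higher and 14.8% were lower in the Mid. The calls over all clusters were 51% higher ones, against 36.6% with library sizes without TMM and 35.7% with upper-quartile scaling, while 8 and 9 of the 11 clusters were called with these scalings. The median log2 fold change of the 11 clusters was 0.84, against 0.01 over all clusters. From the Mid to Post, 10 were down-regulated and 1, again the upstream Nr3c1 cluster, was up-regulated, beside 17.5% higher and 17.5% lower over all clusters, with medians of -1.25 and -0.01. Calls are at a Benjamini-Hochberg FDR under 0.05 over all clusters, from edgeR's quasi-likelihood F test in 1 fit of the 28 libraries, and log2 fold changes from the same fit are given with their standard error. The comparisons with the Mid group all share its 8 libraries, so their fold changes are not independent of each other. Without Mid 6 and Dep 3 the counts were the same, 9 higher and 1 lower in the Mid, and 1 higher and 10 lower in the Post. Of all 10776 clusters, that fit called 1873 higher and 1830 lower in the Mid than in the Pre. It called 2054 higher and 2139 lower in the Post than in the Mid.

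**Figure D2:**
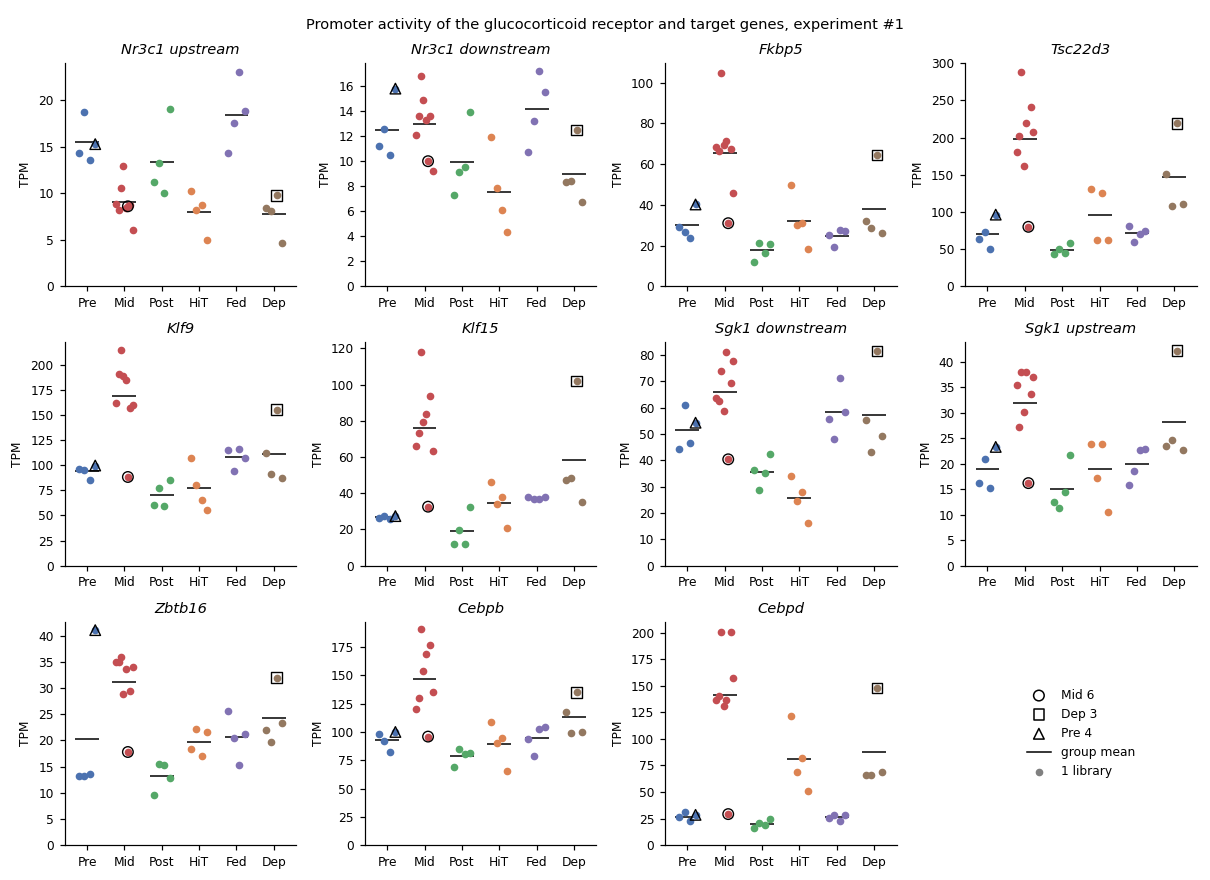
TPM of the 11 clusters (vertical axes from 0) in each library of experiment #1, by group, with group means as short lines and open symbols around Mid 6, Dep 3 and Pre 4. The Mid group has the highest mean in 9 of 11 clusters; the exceptions are both clusters of Nr3c1, whose highest mean is that of the Fed group.

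Nr3c1, on the minus strand of chromosome 18, had 2 clusters: the upstream one from 39490568 to 39490830, with its peak on the first base of an annotated coding transcript, and the downstream one from 39489209 to 39490187, with its peak 24 bp from the start of another. These peaks were 852 bp apart. The upstream cluster of Nr3c1 had 14.3, 18.8, 13.6 and 15.3 TPM in the 4 Pre libraries. In the Mid group it ran from 6.02 to 12.9 TPM with a median of 8.7, and in the 4 Post libraries it had 11.2, 13.3, 10 and 19.1 TPM. All Mid libraries were thus below all Pre libraries, while the Mid and Post libraries overlapped. The upstream cluster fell on entry (-0.69 ± 0.14, FDR 0.000395) and rose on return (0.54 ± 0.14, FDR 0.00345). The latter call was lost with library sizes without TMM (0.57, FDR 0.0556). The downstream cluster of Nr3c1 had 11.2, 12.6, 10.5 and 15.8 TPM in the Pre, from 9.2 to 16.8 TPM (median 13.4) in the Mid, and 7.3, 9.16, 9.53 and 13.9 TPM in the Post libraries. These groups overlapped throughout, and its fall from the Mid to Post (-0.41 ± 0.14, FDR 0.0217) was not called in 3 of the 28 fits that left out 1 library, those without Post 1 (FDR 0.0824), Post 2 (0.073) or Post 3 (0.0564), nor with library sizes without TMM (FDR 0.27).

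The 2 clusters of Nr3c1 did not move in parallel. The log2 ratio of the downstream to the upstream cluster was -0.31 ± 0.26 (SD, n = 4) in the Pre, 0.51 ± 0.20 (SD, n = 8) in the Mid and -0.42 ± 0.24 (SD, n = 4) in the Post group. The lowest Mid ratio was 0.21 and the highest Pre ratio 0.05, so the downstream cluster was the more active one in all Mid libraries. The ratio was -0.14 ± 0.29 in the HiT, -0.38 ± 0.07 in the Fed and 0.23 ± 0.25 in the Dep group (SD, n = 4 each). It was higher in the Mid than in the Pre, Post, HiT and Fed groups by 0.82, 0.93, 0.65 and 0.90 (two-sided exact permutation tests over 495 arrangements of the mice, p = 0.00202 each, the smallest this design gives, and 0.00337 after adjustment over 10 tests). The Dep group was lower than the Mid group by a log2 ratio of -0.29, which did not pass (exact permutation test, p = 0.0646, adjusted 0.0808). In experiment #2, where the ratio was not tested, it was -0.05 ± 0.03 (SD, n = 2) in the Pre, 0.60 ± 0.21 (SD, n = 5) in the Mid and -0.24 ± 0.17 (SD, n = 3) in the Post group.

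**Figure D3:**
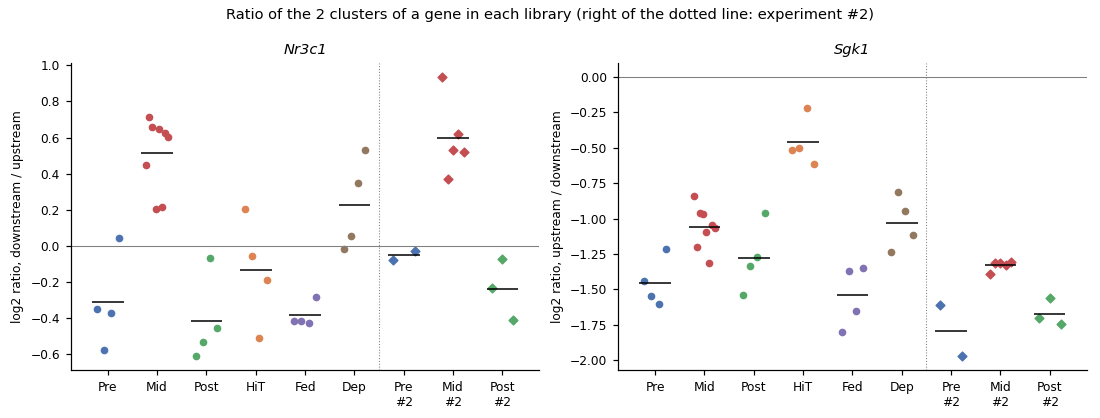
Log2 ratio of the TPM of the 2 clusters of Nr3c1 (downstream over upstream) and of Sgk1 (upstream over downstream) in each library, by group and experiment, with group means. The Nr3c1 ratio lies between 0.21 and 0.71 in the Mid libraries of experiment #1 and the Sgk1 ratio lies between -0.62 and -0.22 in the HiT libraries, above the Sgk1 ratios of the Mid libraries (-1.31 to -0.84).

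Fkbp5 and Tsc22d3 are targets that feed back on the hormone's action. Fkbp5 encodes FKBP51, a co-chaperone that lowers the affinity of the receptor for its hormone. It had 29.1, 26.8, 23.5 and 40.2 TPM in the Pre libraries, between 31 and 105 TPM (median 67.8) in the Mid and 11.9, 21.5, 16.6 and 20.8 TPM in the Post libraries. Mid 6 had the 31 TPM, and the other 7 Mid libraries (45.9 to 105) were above all Pre libraries. On entry it rose 2.3-fold, by 1.20 ± 0.21 on the log2 scale (FDR 0.000116), and on return its log2 fold change was -1.91 ± 0.22 (FDR 3.41e-07). Tsc22d3 encodes GILZ, a leucine zipper protein that carries part of the anti-inflammatory action of glucocorticoids. Its level was 63.4, 72.9, 50.2 and 96.4 TPM in the Pre, 80 to 288 TPM (median 205) in the Mid and 43.7, 49.9, 44.6 and 58.3 TPM in the Post libraries. Again only Mid 6, at 80 TPM, lay within the range of the Pre group. The log2 fold changes were 1.57 ± 0.24 (FDR 1.94e-05) and -2.02 ± 0.24 (FDR 5.5e-07).

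Klf9 and Klf15 encode Krüppel-like transcription factors, and KLF15 is known to promote the breakdown of branched-chain amino acids in muscle. Klf15 had 26.2, 27.7, 26 and 27.4 TPM in the Pre libraries, the narrowest spread of the clusters in that group, and 32.6 to 118 TPM (median 76.3) in the Mid libraries. All Mid libraries were above all Pre libraries, Mid 6 with the 32.6 TPM included. In the Post libraries it had 11.9, 19.5, 12.1 and 32.5 TPM, with Post 4 the highest. The log2 fold changes of Klf15 were 1.57 ± 0.24 (FDR 2.25e-05) and -2.05 ± 0.25 (FDR 5.95e-07), or 2.97-fold up and 4.14-fold down. Klf9 had 96.5, 94.7, 84.9 and 99.6 TPM in the Pre, 88.2 to 214 TPM (median 173) in the Mid and 60.5, 77.3, 58.9 and 84.9 TPM in the Post libraries. Mid 6 had the 88.2 TPM, and the next lowest Mid library had 157 TPM. Its changes, 0.91 ± 0.13 (FDR 8.59e-06) and -1.27 ± 0.13 (FDR 6.45e-08), were smaller than those of Klf15 in size, a difference that was not tested.

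Cebpb and Cebpd encode C/EBP transcription factors, which are known for acting in fasting and in the acute phase response. Cebpd had the largest fold change of the 11 clusters. It had 26.1, 30.8, 22.3 and 28.5 TPM in the Pre, 29.2 to 201 TPM (median 138) in the Mid and 16.4, 20.7, 18.5 and 24.8 TPM in the Post libraries. The 29.2 TPM were those of Mid 6, and the other 7 Mid libraries had at least 131 TPM. Its log2 fold change was 2.47 ± 0.30 on entry (FDR 1.36e-06, 5.53-fold) and -2.83 ± 0.31 on return (FDR 1.3e-07, 7.11-fold down). Cebpb had 98.5, 92, 82.4 and 100 TPM in the Pre, 95.9 to 191 TPM (median 144) in the Mid and 68.8, 85.3, 80.4 and 81.5 TPM in the Post libraries. It rose by 0.73 ± 0.11 (FDR 1.94e-05) and fell by 0.90 on the log2 scale (SE 0.11, FDR 7.27e-07). Mid 6 again had the lowest level, and it alone lay within the Pre range.

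Zbtb16 encodes PLZF, a zinc finger transcription factor. It had 13.3, 13.3 and 13.6 TPM in Pre 1 to Pre 3 but 41.1 TPM in Pre 4, above all Mid libraries (17.8 to 35.9, median 33.8). In the Post libraries it had 9.52, 15.5, 15.3 and 12.8 TPM. Its log2 fold change on entry was 0.71 ± 0.26 (FDR 0.0358), and 1.28 (FDR 0.00012) without Pre 4. The call was lost in 5 of the 28 fits that left out 1 library, those without Mid 3, Mid 8, Pre 1, Pre 2 or Pre 3 (FDR 0.0531 to 0.159), and also with library sizes without TMM (0.0907), with upper-quartile scaling (0.0503) and when only the Pre and Mid groups were fitted (0.0866). The fall from the Mid to Post was -1.25 ± 0.26 (FDR 0.000628).

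Sgk1 encodes a kinase of the AGC family that regulates ion channels and transporters and can phosphorylate FOXO factors. Its downstream cluster was the more active one, with 44.4, 61.2, 46.5 and 54.3 TPM in the Pre, 40.4 to 81 TPM (median 66.6) in the Mid and 36.5, 28.7, 35.2 and 42.5 TPM in the Post libraries. The Pre and Mid libraries overlapped, and the log2 fold change of 0.44 ± 0.14 (FDR 0.0173) had an FDR of 0.0654 without Pre 1 and of 0.223 with library sizes without TMM. From the Mid to Post it was -0.90 ± 0.14 (FDR 2.61e-05). The upstream cluster had 16.3, 20.9, 15.2 and 23.3 TPM in the Pre, 16.2 to 38 TPM (median 34.6) in the Mid and 12.5, 11.3, 14.5 and 21.8 TPM in the Post libraries. Apart from Mid 6, at 16.2 TPM, its Mid libraries were above the Pre and the Post libraries, with log2 fold changes of 0.84 ± 0.18 (FDR 0.000898) and -1.12 ± 0.18 (FDR 3.83e-05). The log2 ratio of the upstream to the downstream cluster rose from -1.45 ± 0.17 (SD, n = 4) in the Pre to -1.06 ± 0.15 (SD, n = 8) in the Mid (exact permutation test, p = 0.00404, adjusted 0.00577). It was -1.28 ± 0.24 (SD, n = 4) in the Post group, which did not pass against the Mid group (p = 0.0848, adjusted 0.0943, exact permutation test).

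Against the Pre group, the Post group was not called different in any of the 11 clusters by edgeR, and 3 had an unadjusted p under 0.05. All 11 had a negative log2 fold change, from -0.15 for the upstream Nr3c1 cluster to -0.71 ± 0.24 for Fkbp5 (FDR 0.149), with a median of -0.36 against -0.01 over all clusters. Over all clusters 1.85% were called in this comparison. In the fit without Mid 6 and Dep 3, which are in neither group, 1 of the 11 clusters was called lower in the Post. That fit called 109 of all 10776 clusters lower and 147 higher in the Post.

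Experiment #2 gave the same comparisons in other mice at a lower depth. On entry, 8 clusters were up-regulated and 1 was down-regulated, where 5.3% of 10816 clusters were higher and 4.44% lower. On return, 1 was up-regulated and 9 were down-regulated, where 7.73% were higher and 8.65% lower. The medians of the 11 log2 fold changes were 0.75 and -1.01. Cebpd had 33.2 and 33.5 TPM in the 2 Pre, 200, 114, 151, 176 and 137 TPM in the 5 Mid, and 28.9, 29.4 and 24.9 TPM in the 3 Post libraries, with log2 fold changes of 2.28 ± 0.23 (FDR 0.0004) and -2.57 ± 0.19 (FDR 2.92e-05). Tsc22d3 had 44.3 and 54.1 TPM in the Pre, 129, 139, 130, 151 and 110 TPM in the Mid, and 52.1, 38.4 and 44.4 TPM in the Post. Its Mid libraries were above the Pre and the Post libraries without overlap, and so were those of Klf15, with 21.3 and 32.2, then 56.6 to 69.3, then 19.6 to 26.7 TPM. The upstream Nr3c1 cluster moved the other way, with 25.6 and 28.4 TPM in the Pre, 11.2 to 18.2 TPM in the Mid and 26.1, 23.8 and 25.1 TPM in the Post (log2 fold changes -0.88 ± 0.14, FDR 0.00477, and 0.75 ± 0.13, FDR 0.0028). The downstream clusters of Nr3c1 (-0.25 ± 0.11, FDR 0.199) and Sgk1 (0.29 ± 0.15, FDR 0.261) were not called from the Pre to Mid.

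Zbtb16 was at another level in the 2 experiments. It had 84.5 and 93.8 TPM in the Pre, 142 to 180 TPM in the Mid and 88.2, 86.7 and 76.2 TPM in the Post libraries of experiment #2. Its Pre mean was 4.38 times that of experiment #1, at percentile 96 of this ratio over all clusters, whose median was 0.98. The log2 fold changes within experiment #2 were 0.90 ± 0.14 (FDR 0.00398) and -1.01 ± 0.12 (FDR 0.000388). The Pre level in experiment #2 was 2.08 and 1.74 times that in experiment #1 for the downstream and upstream Nr3c1 clusters, 2.01 times for Fkbp5 and 0.696 times for Tsc22d3. The experiments differed in mice, depth and sequencing run, which cannot be told apart. A test of the interaction of experiment and group asked whether the changes themselves differed. By edgeR it called 0 of the 11 clusters in either comparison, with 0 at an unadjusted p under 0.05 from the Pre to Mid (lowest FDR 0.997) and 1 from the Mid to Post, Klf9 (0.43 ± 0.20, FDR 0.859). It also called 0 of all 10818 clusters from the Pre to Mid and 0 of all 10819 from the Mid to Post. At an unadjusted p under 0.05 there were 515 and 563 of these. With no call anywhere, it cannot show that the changes of the 11 clusters were the same in both experiments.

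The 2 Pre libraries and 4 of the Mid libraries of experiment #2 ran on lane 3, and Mid 13 and the 3 Post libraries on lane 4. When the model also held the lane, an alternative chosen after the data were seen, 8 clusters were higher and 1 lower from the Pre to Mid. On return, where 1 Mid library shares the lane of the Post libraries, 8 were still called lower. There the downstream Sgk1 cluster (-0.68, FDR 0.0845) and the upstream Nr3c1 cluster (0.69, FDR 0.112) lost their calls. The shares over all clusters given above belong to the fit of groups alone. Those of the fits in this paragraph are not given, so its counts cannot be set beside them. The Pre to Mid calls of experiment #2 rest on 2 Pre libraries, and without Pre 6 they numbered 4.

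**Figure D4:**
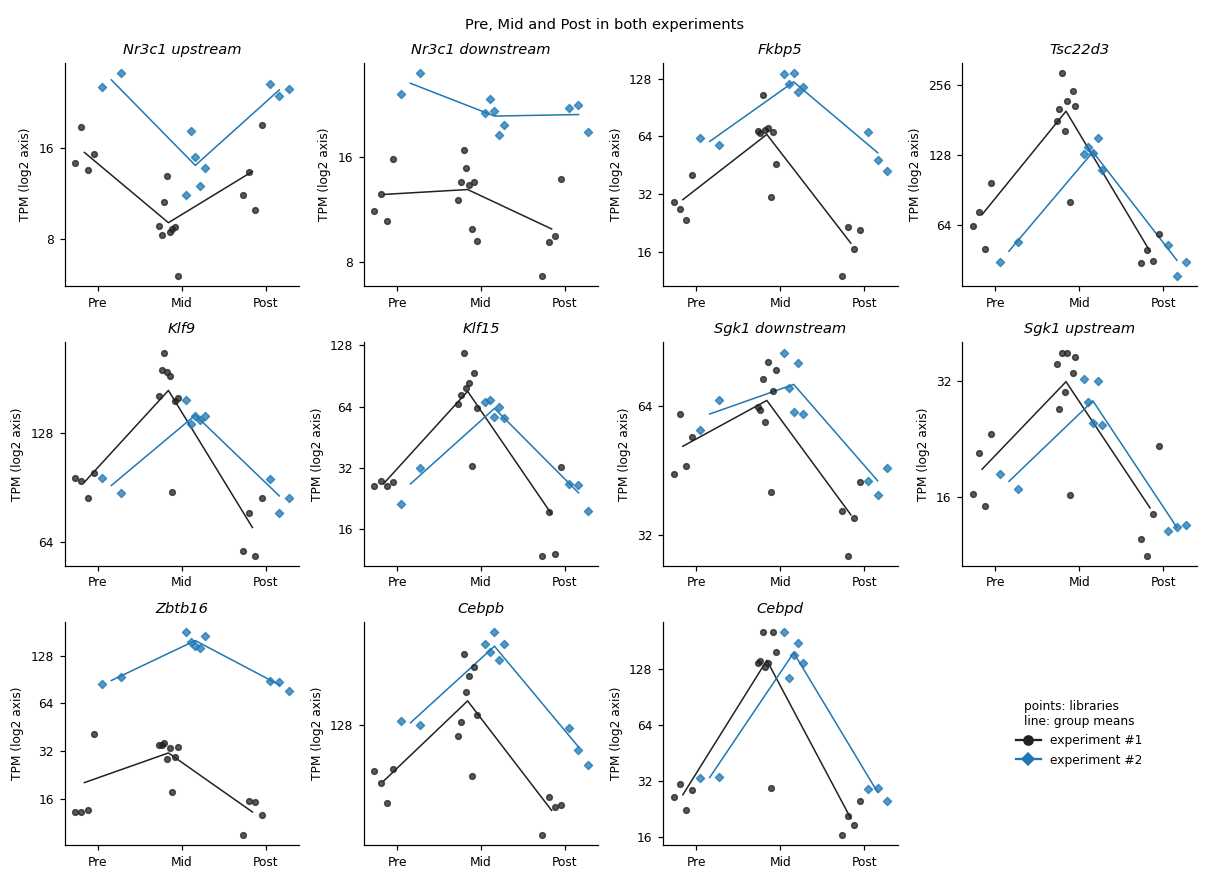
TPM (log2 axes) of the clusters in the Pre, Mid and Post libraries of experiments #1 and #2, each point a library and the lines joining group means. Levels of Zbtb16 are higher in experiment #2 in all 3 groups (76.2 to 180 TPM against 9.52 to 41.1 TPM), while the Mid mean is above the Pre and Post means in both experiments for the clusters called in both comparisons of both experiments, apart from the upstream Nr3c1 cluster.

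The HiT mice were fasted in the warm, and the Fed mice kept their food in the cold. By the study's methods the ambient temperature was set before recording began and then held. The Pre and Fed mice thus differ in day and not in food or temperature, and their comparison does not isolate the cold. The Pre and HiT mice differ in food, temperature and day together. Cebpd was the cluster in which the HiT and Fed groups parted most. It had 122, 68.5, 82.2 and 50.6 TPM in the HiT and 25.9, 28.7, 22.8 and 27.9 TPM in the Fed libraries. The HiT libraries were all above the Pre libraries, and the Fed libraries lay within their range. In all, 1 of the 11 clusters, Cebpd, was higher in the HiT than in the Pre group (1.74 ± 0.31, FDR 0.000115), where 18.5% of all clusters were higher. Lower were 3, where 14.9% of all clusters were lower: the downstream Sgk1 cluster (-0.84 ± 0.16, FDR 0.000231) and the upstream (-0.77 ± 0.16, FDR 0.000611) and downstream (-0.59 ± 0.16, FDR 0.00477) clusters of Nr3c1. Tsc22d3 (0.62 ± 0.25, FDR 0.0623) and Klf15 (0.53 ± 0.26, FDR 0.121) did not pass, and both did in the fit without Mid 6 and Dep 3, which gave 3 higher and 3 lower. Neither library is in these groups. Their log2 fold changes stayed at 0.62 and 0.53, and only the SE from the shared fit was smaller (0.21 and 0.20). That fit called 2074 of all 10776 clusters higher and 1645 lower in the HiT than in the Pre group. The Fed group was not called different from the Pre group in any cluster by edgeR, with 0 at an unadjusted p under 0.05, where 11.2% of all clusters were called. The largest difference was that of Klf15, at 38.2, 36.6, 37 and 37.8 TPM in the Fed libraries, all above the Pre libraries (0.46 ± 0.26, FDR 0.264).

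The downstream Sgk1 cluster was lowest in the HiT group, with 34.2, 24.5, 27.8 and 16.1 TPM, all below the Pre libraries. The upstream cluster, with 23.9, 17.3, 23.9 and 10.5 TPM, overlapped them (0.17 ± 0.20, FDR 0.541). The log2 ratio of the upstream to the downstream cluster was -0.46 ± 0.17 (SD, n = 4) in the HiT group, above that of the Mid group (difference from the HiT to Mid -0.60, exact permutation test, p = 0.00202, adjusted 0.00337). In the Fed group it was -1.54 ± 0.22 (SD, n = 4), and the Mid group was higher by 0.48 (exact permutation test, p = 0.00202, adjusted 0.00337).

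Against these controls, 9 of the 11 clusters were higher in the Mid than in the HiT group, where 19.2% of all clusters were higher and 21.8% lower. The 2 that were not called were Zbtb16 (0.50 ± 0.25, FDR 0.12) and the upstream Nr3c1 cluster (0.08 ± 0.14, FDR 0.694). The log2 fold change was 1.28 ± 0.15 (FDR 1.33e-07) for the downstream Sgk1 cluster, 1.04 ± 0.13 (FDR 5.64e-07) for Klf9, 0.95 ± 0.21 (FDR 0.00075) for Fkbp5 and 0.72 ± 0.27 (FDR 0.0344) for Cebpd. The call of Cebpd was lost in 4 fits that left out 1 library (without HiT 2, HiT 4, Mid 3 or Mid 7), without TMM (FDR 0.0548) and when only the HiT and Mid groups were fitted (FDR 0.115). From the Fed to Mid, 8 were higher and 1, the upstream Nr3c1 cluster, was lower (-0.92 ± 0.14, FDR 1.05e-05), where 16.6% of all clusters were higher and 18.6% lower. Cebpd had 2.51 ± 0.30 (FDR 8.6e-07), Tsc22d3 1.57 ± 0.24 (FDR 1.43e-05), Fkbp5 1.50 ± 0.22 (FDR 7.9e-06) and Klf15 1.11 ± 0.23 (FDR 0.000612). Zbtb16 was at 0.68 ± 0.26 (FDR 0.0397), a call that was lost without any one of Fed 2, Fed 3, Fed 4, Mid 1, Mid 3, Mid 5 or Mid 8, and also with library sizes without TMM (FDR 0.0925), with upper-quartile scaling (0.0516) and with the replicate number as a block (0.0693). Without Mid 6 and Dep 3 the counts were 9 from the HiT to Mid, and 9 higher and 1 lower from the Fed to Mid. Of all 10776 clusters, that fit called 2295 higher and 2463 lower from the HiT to Mid. From the Fed to Mid it called 1876 higher and 2086 lower.

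Markers of other cells differed in the HiT group. The macrophage markers (Cd68, Csf1r, Mrc1, Cd163 and C1q genes, with no cluster for Adgre1 and Cd14) summed to between 89.3 and 249 TPM in the HiT libraries, against 35.6 to 67.7 TPM in the Pre and 37.3 to 57.8 TPM in the Mid libraries, and 7 of the 7 with a cluster were higher in the HiT than in the Pre group. Of the 8 slow muscle markers, 4 were lower. Over all clusters, 18.5% were higher and 14.9% lower in the HiT than in the Pre group. The fast glycolytic markers Myh4 (6.09 ± 1.48, FDR 0.00188), Pvalb (1.45 ± 0.50, FDR 0.023) and Pfkfb3 (1.17 ± 0.29, FDR 0.00191) were higher in the Mid than in the HiT group. The other fast markers were not called there. Myh4 had 4.27 ± 2.27 TPM in the HiT and 309 ± 335 TPM in the Mid group (SD). Red blood cell markers summed to between 1305 and 3178 TPM in the HiT libraries. Their sums were 3762 to 5625 TPM in the Pre and 2371 to 4466 TPM in the Mid libraries. The part of these cells and fibres in the HiT values of the receptor and its targets was not tested. The TMM factor of the HiT libraries also varied, from 0.679 in HiT 4 to 1.18 in HiT 1, so that HiT 1 had the highest TPM of the group in 10 of 11 clusters but in 4 after TMM scaling.

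The Dep mice were fasted in the cold like the Mid mice but kept out of torpor. By the study, their metabolism at sampling was similar to that of the Mid mice that were metabolically not torpid. Cebpd had 66.3, 65.8, 148 and 69.2 TPM in the Dep libraries, and Fkbp5 had 32, 28.6, 64.4 and 26.2 TPM, with Dep 3 the highest in both. Klf9 had 112, 91.1, 155 and 87 TPM and Klf15 had 47.6, 48.3, 102 and 35 TPM, again with Dep 3 the highest. In the fit of all libraries 1 of the 11 clusters was called lower in the Dep than in the Mid group, Klf9 (-0.51 ± 0.13, FDR 0.0378), where 2.03% of all clusters were called. Fkbp5 was at -0.72 ± 0.21 (FDR 0.0658), Cebpd at -0.62 ± 0.27 (FDR 0.207) and the median of the 11 clusters at -0.32, against 0.00 over all clusters. All 11 had a negative log2 fold change.

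This comparison depended on Mid 6 and Dep 3. Without both, 5 clusters were called lower in the Dep group: Fkbp5 (-1.08, FDR 0.00306), Cebpd (-1.03, FDR 0.00268), Klf15 (-0.72, FDR 0.0351), Klf9 (-0.69, FDR 0.00121) and the downstream Nr3c1 cluster (-0.56, FDR 0.0334). Without Mid 6 alone and without Dep 3 alone, 3 clusters were called. Over all 10776 clusters, 219 were called with both libraries, 94 of them lower and 125 higher in the Dep group. Without both, 677 were called, 403 of them lower and 274 higher. Without Dep 3 the mean of Fkbp5 in the Dep group was 28.9 ± 2.91 TPM (SD, n = 3) and without Mid 6 its Mid mean was 70.5 ± 17.4 TPM (SD, n = 7). For Cebpd these means were 67.1 ± 1.83 TPM and 158 ± 30.6 TPM. Leaving out a library because it lies apart in these clusters narrows the groups, and the labels give no reason to leave either out. The call of Klf9 was itself lost in 8 of the 28 fits without 1 library (FDR 0.0502 to 0.175). The adipocyte markers, 8 of 8 with a cluster, summed to 2016 TPM in Dep 3 and to as little as 255 TPM in another Dep library. The neutrophil markers, 5 of 8 with a cluster, summed to 135 TPM in Dep 1, against 1.43 to 4.77 TPM in the Pre libraries. The part of these cells in the Dep values was not tested.

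Against the Pre group, 6 clusters were higher in the Dep group, where 13.7% of all clusters were higher, and the upstream Nr3c1 cluster was lower (-0.84 ± 0.16, FDR 0.000412), where 12.1% were lower. The higher ones were Cebpd (1.85 ± 0.32, FDR 9.62e-05), Klf15 (1.25 ± 0.26, FDR 0.000863), Tsc22d3 (1.22 ± 0.26, FDR 0.000888), the upstream Sgk1 cluster (0.74 ± 0.20, FDR 0.00803), Cebpb (0.45 ± 0.12, FDR 0.00797) and Klf9 (0.40 ± 0.14, FDR 0.0386). Without Mid 6 and Dep 3, Klf9 was not called (FDR 0.0573) and 5 remained higher, where 1416 of all 10776 clusters were higher. Fkbp5, at 0.48 ± 0.23 (FDR 0.131), did not pass, and neither did Zbtb16 or the downstream clusters of Sgk1 and Nr3c1. Of the clusters, 4 were called between the HiT and Dep groups, all higher in the Dep, where 26.5% of all clusters were called. They were both Sgk1 clusters (1.16 ± 0.16, FDR 7.58e-06, downstream, and 0.57 ± 0.20, FDR 0.0378, upstream), Klf9 (0.53 ± 0.14, FDR 0.00708) and Klf15 (0.72 ± 0.26, FDR 0.0405), and 2 were called without Mid 6 and Dep 3. Of all 10776 clusters, that fit called 1186 higher and 1536 lower in the Dep than in the HiT. Between the Fed and Dep groups 8 were called, 6 of them higher and both Nr3c1 clusters lower in the Dep, where 38.6% of all clusters were called. Tsc22d3 and Cebpd were higher there by 1.23 ± 0.26 (FDR 0.000621) and 1.89 ± 0.32 (FDR 5.6e-05).

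**Figure D5:**
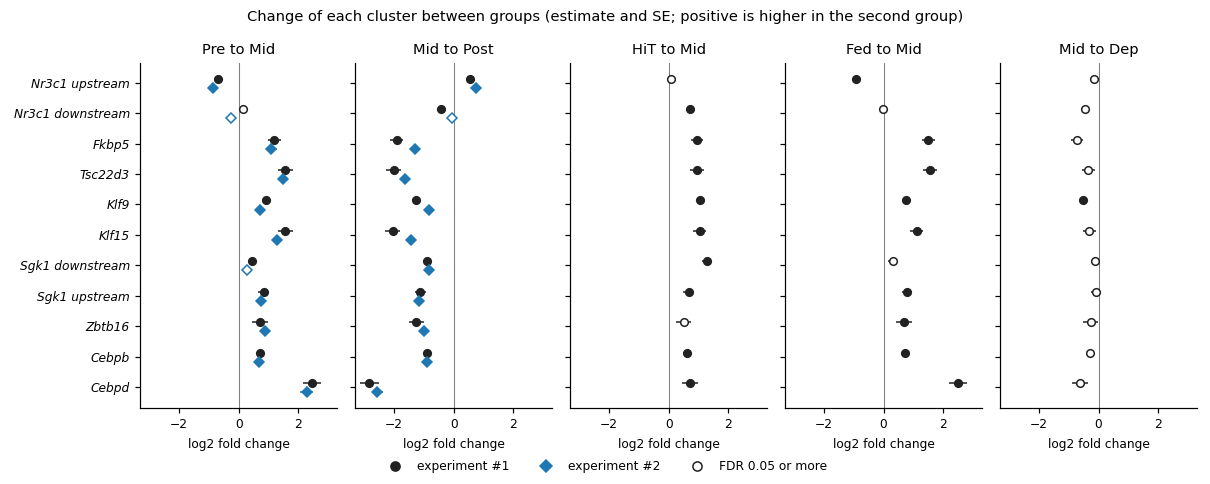
Log2 fold change of each of the 11 clusters in 5 comparisons with the Mid group, in black for experiment #1 and in blue for experiment #2 (edgeR, bars of 1 SE, filled where the FDR is under 0.05). In experiment #1 the values from the Pre to Mid run from -0.69 (upstream Nr3c1) to 2.47 (Cebpd), and from the Mid to Dep they are all below 0 with 1 call, Klf9.

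Ordered by group mean in experiment #1, the Mid group was highest for 9 clusters, and the Post group was lowest for 8. Between neighbours in this order 7 of 55 pairs differed by the test, so that most neighbouring groups did not differ beyond the spread of the mice. For Cebpd the means were 20.1 ± 3.6 (Post), 26.3 ± 2.65 (Fed), 26.9 ± 3.64 (Pre), 80.9 ± 30.5 (HiT), 87.3 ± 40.6 (Dep) and 142 ± 53.5 TPM (Mid; SD, n = 8 in the Mid and 4 in the other groups), and only the step from the Pre to HiT was called. For Tsc22d3 they were 49.1 ± 6.69 (Post), 70.7 ± 19.5 (Pre), 71.1 ± 9.26 (Fed), 95.4 ± 38.1 (HiT), 147 ± 51.5 (Dep) and 198 ± 61.1 TPM (Mid), with a call from the Fed to HiT (FDR 0.0491). For Klf15 the means were 19 ± 9.69 (Post), 26.8 ± 0.884 (Pre), 34.7 ± 10.7 (HiT), 37.4 ± 0.724 (Fed), 58.2 ± 29.8 (Dep) and 76.2 ± 24.8 TPM (Mid), with a call from the Fed to Dep. The same step was called for Cebpb (FDR 0.00523) and for the upstream Sgk1 cluster (FDR 0.00936). For Fkbp5 no step was called, from 17.7 ± 4.42 TPM in the Post and 24.8 ± 3.89 TPM in the Fed to 65.6 ± 21.4 TPM in the Mid group. For the upstream Nr3c1 cluster the order ran from the Dep (7.73 ± 2.2), HiT (8.05 ± 2.24) and Mid (9.05 ± 1.98) to the Post (13.4 ± 4.02), Pre (15.5 ± 2.3) and Fed groups (18.5 ± 3.65 TPM), with a call from the Mid to Post. The 3 groups without food thus had lower means than the 3 groups with food.

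Other genes of the pathway were taken from lists written from general knowledge, but with earlier results of these data known. The counts of these lists are thus a description and not an independent test. Of 30 further genes induced by glucocorticoids, 28 had a cluster (not Hif3a and Mstn), and the most active cluster of each was taken. On entry 21 rose and the other 7 did not pass, with a median log2 fold change of 1.07, where 15.4% of all clusters were higher. On return 21 fell, where 17.5% of all clusters were lower. Without Mid 6 and Dep 3, 22 rose and 1 fell on entry and 23 fell on return. Of all 10776 clusters, 1873 rose and 1830 fell on entry in that fit, and 2139 fell on return. The largest rises were those of Mt2, a metallothionein (4.44 ± 0.59, FDR 3.82e-06, from 20.3 to 426 TPM on average), Pdk4, the kinase that blocks pyruvate oxidation (3.42 ± 0.29, FDR 2.05e-08, from 437 to 4553 TPM), and Mt1 (2.74 ± 0.37, FDR 5.01e-06, from 90.4 to 582 TPM). In experiment #2, 14 rose on entry and 17 fell on return, where 5.3% and 8.65% of all clusters did. From the Pre to HiT 12 were higher and 2 lower (18.5% and 14.9% of all clusters), and from the HiT to Mid 13 were higher and 2 lower (19.2% and 21.8%). Mt2 (416 TPM), Pdk4 (4082 TPM) and Mt1 (463 TPM) were not called different between the HiT and Mid groups (log2 fold changes -0.07, 0.05 and 0.22, FDR 0.915, 0.898 and 0.613), whereas Cebpd, Klf9, Klf15, Fkbp5 and Tsc22d3 were called lower in the HiT than in the Mid group. Whether the former genes differ from the latter in this was not tested. From the Mid to Dep 2 of the 28 were higher (2.03% of all clusters were called) and, in the fit without Mid 6 and Dep 3, 1 was higher and 5 were lower. That fit called 274 of all 10776 clusters higher and 403 lower. From the Fed to Mid 18 were higher and 1 lower (16.6% and 18.6% of all clusters), and from the Pre to Dep 18 were higher and 1 lower (13.7% and 12.1%). Mt1 and Mt2 also respond to metals and Pdk4 to other signals of fasting, so the list is not specific to the receptor.

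The list of receptor partners, with chaperones, coregulators and enzymes of hormone activation, had a cluster for 20 of 20 genes, and its counts lay near those over all clusters. On entry 2 rose, where 15.4% of all clusters were higher, the coactivator Ncoa2 (0.34 ± 0.07, FDR 0.000624) and the co-chaperone Ptges3 (0.30 ± 0.07, FDR 0.00142). Lower were 3, where 14.8% of all clusters were, the mineralocorticoid receptor Nr3c2 (-0.78 ± 0.15, FDR 0.00042), the immunophilin Fkbp4 (-0.27 ± 0.06, FDR 0.0012) and the co-chaperone Stip1 (-0.23 ± 0.07, FDR 0.0203). Nr3c2 went from 16.2 to 8.91 TPM on average, a change in the direction of the upstream Nr3c1 cluster. In experiment #2 only Nr3c2 of these 5 was called (-0.90 ± 0.20, FDR 0.019), while Ncoa2 (0.26, FDR 0.299), Ptges3 (0.25, FDR 0.182), Fkbp4 (-0.22, FDR 0.295) and Stip1 (-0.32, FDR 0.153) did not pass. Without Mid 6 and Dep 3 in experiment #1, 4 of the 20 were higher and 3 lower on entry, where 1873 of all 10776 clusters were higher and 1830 lower. On return 4 rose and 5 fell (17.5% each over all clusters), from the HiT to Mid 5 were higher and 3 lower (19.2% and 21.8%), and from the Fed to Mid 2 were higher and 4 lower (16.6% and 18.6%).

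Of 14 inflammatory genes that glucocorticoids repress, 3 had a cluster. On entry the chemokine gene Ccl2 (-2.68 ± 0.54, FDR 0.000461, from 3.72 ± 3.96 to 0.554 ± 0.371 TPM, SD, n = 4 and 8) and Socs3 (-0.58 ± 0.22, FDR 0.0488) fell, where 14.8% of all clusters were lower, and the third, Nfkb1, named here after its value was seen, was at -0.06 ± 0.15 (FDR 0.782). In experiment #2 neither Ccl2 (-1.39 ± 0.67, FDR 0.233) nor Socs3 (-0.55 ± 0.32, FDR 0.318) passed. Both Ccl2, at 19.6 TPM, and Socs3, at 12.3 TPM, were higher in the HiT than in the Pre group, beside the higher macrophage markers given above.

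The marker lists for cells that a muscle sample can hold were compared from the Pre to Mid, where 15.4% of all clusters were higher and 14.8% lower. Of 8 slow muscle markers 0 were called (edgeR, 0 at an unadjusted p under 0.05), 1 of 8 fast glycolytic markers was higher, 1 of 8 adipocyte markers was lower, 1 of 7 macrophage markers was higher and 1 of 7 tendon markers was lower. Of 7 endothelial markers 2 were higher (Flt1 and Pecam1) and 3 lower (Kdr, Emcn and Tek). Of 5 neutrophil and 5 red blood cell markers with a cluster 0 were called by edgeR, also 0 at an unadjusted p under 0.05. The part of these cells in the changes from the Pre to Mid was not tested.

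For the more active cluster of each member, the genes most like it across the 28 libraries of experiment #1 were found among 9430 clusters of other genes by the root mean square distance of log2(TPM + 0.1) values centred on their means, given in log2 units. The libraries share their scaling and depth with all genes in them, and the distances are a description. For Fkbp5 they were Pi4k2a (0.24), Glul (0.27) and Rhou (0.30), for Tsc22d3 Tcp11l2 (0.27), Sorbs3 (0.29) and Bcl2l1 (0.29), and for Klf15 Slc25a33 (0.26), Ulk1 (0.28) and Pi4k2a (0.31). For Klf9 they were Zranb1 (0.15), Zxdc (0.20) and Prickle3 (0.22), for the downstream Sgk1 cluster Lpin1 (0.26), Adgrf5 (0.28) and Mtmr4 (0.28), and for Cebpd Sesn1 (0.25), Depp1 (0.34) and Map3k6 (0.37). For Zbtb16 they were Lmbr1l (0.30), Aff1 (0.32) and Cblb (0.33), and for the upstream Nr3c1 cluster Dnmt3a, Homer1 and Prrc2b (0.22 each). Among the members, Klf9 was 0.24 from Cebpb (rank 19 by distance over all clusters) and 0.30 from the upstream Sgk1 cluster (rank 150). From Klf15, Tsc22d3 was at 0.33 (rank 5) and Fkbp5 at 0.34 (rank 9), and from Tsc22d3, Fkbp5 was at 0.32 (rank 10). Other members were far apart. Cebpd was 0.87 from Klf9 (rank 8854) and 0.64 from Fkbp5 (rank 1550). Tsc22d3 was 0.64 from the downstream Sgk1 cluster (rank 7351), and Cebpd 1.56 from the upstream Nr3c1 cluster (rank 9340). Of the most alike genes of other loci named here, Glul, Lpin1 and Sesn1 are also in the list of genes induced by glucocorticoids, and the rest are not. Cebpb, whose group means spanned 0.89 on the log2 scale, was below the span of 1 set for this search.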

How the data were processed

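The data are nAnT-iCAGE libraries of soleus muscle from 38 mice, each mouse giving 1 library, grouped by their labels. Numbers of replicates name separate mice. The authors mapped the reads to the mm10 genome, grouped the start sites into promoter clusters, and deposited for each cluster and library the number of tags as raw counts. They also deposited the same values as TPM, the tags of a cluster per 1000000 mapped tags of its library, with no term for length and with tags outside the clusters in the total. The per-sample columns used were all of those in the table, with 0 left out.

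Clusters were assigned by the nearest 5′ end in GENCODE vM21 within 500 bp on the same strand. Tests on counts used edgeR 4.0.16 in R 4.3.3 (TMM, quasi-likelihood F test, all clusters with any tag), in 1 fit of the 28 libraries of experiment #1 with 6 groups and in another of the 10 libraries of experiment #2, with Benjamini-Hochberg adjustment over all clusters and a threshold of 0.05. Ratios of 2 clusters of a gene were taken on log2(TPM + 0.1) and tested by exact permutation of the mice, two-sided. Simulated counts for the Pre to Mid comparison, with 200 of 10776 clusters changed by a log2 fold change of 1, gave back 92% of these and 7 false calls. As many were raised as lowered, and the libraries of a group shared their means, so none stood apart like Mid 6. In the data 3253 clusters were called, so these figures check the fit and do not give its error rate here.

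The members and all gene lists (receptor partners, other induced genes, repressed inflammatory genes, and markers of slow and fast muscle, adipocytes, macrophages, neutrophils, red blood cells, tendon and endothelium) were chosen with earlier results of these data known. Every member cluster was described, from each list the genes called from the Pre to Mid were named, at most 3 in each direction, and as most alike the 3 nearest clusters of other genes with a mean of 1 TPM or more, for members whose most active cluster had group means that spanned more than 1 on the log2 scale.

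Alternatives were DESeq2 1.42.0, the likelihood ratio test, filterByExpr, library sizes without TMM, upper-quartile scaling, only the compared groups, a block for the replicate number, 1 fit of all 38 libraries that also holds the experiment, tags summed per gene, windows of 100 and 1000 bp, a pseudocount of 1 TPM for the ratios, and each library left out in turn. Leaving out Mid 6 and Dep 3 together, also for the lists, and lane as a term in experiment #2 were added after the data were seen. Sampling of tags adds little error at these depths, and intervals over mice are given as SD or SE.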

Additional observations from a re-analysis of the deposited data

Results flagged for a closer look

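In 77 combinations of a cluster and a group of 4 to 8 mice, 7 held a library whose gap to its nearest neighbour was large for the range of the group by Dixon's criterion, which chance gives in about 1 of 20. Klf9 was at 88.2 TPM in Mid 6, with the next Mid library at 157 TPM. Cebpd was at 29.2 TPM in Mid 6, with the next at 131 TPM. Zbtb16 was at 17.8 TPM in Mid 6, with the next at 28.8 TPM. Fkbp5 was at 64.4 TPM in Dep 3, with the next Dep library at 32 TPM. Cebpd was at 148 TPM in Dep 3, with the next at 69.2 TPM. The upstream Sgk1 cluster was at 42.2 TPM in Dep 3, with the next at 24.6 TPM. Zbtb16 was at 41.1 TPM in Pre 4, with the next Pre library at 13.6 TPM. Of the 7, 6 thus come from Mid 6 and Dep 3. Of these, only Mid 6 also stood apart over all clusters called from the Pre to Mid.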

How the results depend on the processing

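The number of clusters called from the Mid to Dep, 1 of 11, was 3 with DESeq2, 2 with the likelihood ratio test, 2 with the replicate block, 0 without TMM and 0 when only the compared groups were fitted, 5 without Mid 6 and Dep 3, and 0 to 3 when 1 library was left out. The cause of these differences was not tested. From the Pre to Mid in experiment #2, 9 were called, and 4 to 9 when 1 library was left out, the 4 without Pre 6, where the lone Pre library is taken to vary like the other groups. The Nr3c1 ratio from the Mid to Dep (-0.29) ran from -0.38 to -0.20 without 1 library and passed without Mid 4, Mid 6 or Dep 4 (adjusted p 0.0417, 0.0438 and 0.0227, exact permutation test), and the Sgk1 ratio from the Mid to Post (-0.22) ran from -0.32 to -0.13 and passed without Mid 6 or Post 4 (0.0438 and 0.0152, exact permutation test). The counts from the Pre to Mid, Mid to Post, HiT to Mid and Fed to Mid in experiment #1 and from the Mid to Post in experiment #2 stayed within 1.5 times under each alternative run for them. Other comparisons were recomputed only without Mid 6 and Dep 3, which moved the HiT to Dep count from 4 to 2, the Pre to Post count from 0 to 1 and the Pre to HiT count from 4 to 6, and raised the receptor partners higher on entry from 2 to 4. Of 2431 values of single clusters, 2362 kept their direction and side of the threshold, 51 lost and 18 gained a call, and 0 turned. The replicate numbers name different mice and do not pair them (mean correlation of deviations over 60 pairs of the same number 0.00784, lowest -0.413). With the number as a replicate block in experiment #1, 10 were called from the Pre to Mid, 11 from the Mid to Post, 8 against the Fed group and 9 against the HiT group. This block is not a paired analysis, and none exists in either experiment, since each mouse gave 1 library. The block was not fitted in experiment #2, whose Mid mice share no numbers with the Pre or Post mice. Over all clusters, calls from the Pre to Mid, Mid to Post, HiT to Mid, Fed to Mid and Mid to Dep numbered 3253, 3771, 4422, 3797 and 219, and 1458, 1630, 2323, 2181 and 9 without TMM. DESeq2 called 479 and the fit without Mid 6 and Dep 3 called 677 from the Mid to Dep. The share of calls that were higher from the Fed to Mid was 47.1%, 23.3% without TMM and 36.7% with upper-quartile scaling. It was 49.9% from the Mid to Post and 63.3% with upper-quartile scaling, 57.1% from the Mid to Dep and 77.8% without TMM, and 47.2% from the Mid to Post of experiment #2, where these scalings gave 62.2% and 58.3%. Without TMM the median of all clusters moved to -0.12 from the Fed to Mid and to 0.11 for the HiT group.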
